A study of Rattus norvegicus with 12 samples.

Results

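Immediate early genes are switched on within minutes of a signal at the cell surface, before any new protein has to be made. The genes described here are *Fos*, *Fosb*, *Jun*, *Junb*, *Egr1*, *Ier2*, *Atf3*, *Dusp1*, *Nr4a1* and *Btg2*, and a probe set was taken as a member when the annotation of the array gave it exactly 1 of these symbols. That rule found 13 probe sets among 31099, for 9 of the 10 genes, while the array names 14218 genes in all by a probe set of 1 symbol. *Btg2* had no probe set by the rule and is not described by level. Of the 13 probe sets, 12 passed the filter on dim signals and entered the tests, which ran across 18607 probe sets.

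Most of these genes encode transcription factors. FOS and FOSB pair with JUN proteins to form AP-1, which binds DNA and drives genes of growth and stress, and EGR1 is a zinc finger factor that binds GC-rich DNA. The MAP kinase cascade acts on them through serum response factor, which binds the CArG box, and cyclic AMP acts through CREB, which binds the cyclic AMP response element. In the pituitary, *Egr1* is needed for transcription of *Lhb*, the luteinizing hormone beta gene, and *Nr4a1* acts on *Pomc*, the corticotroph hormone precursor gene.

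The data are 12 expression arrays of anterior pituitary RNA from male rats, with 3 arrays for each of 4 congenic lines. The lines carry alleles of the COP strain on the ACI genetic background at a locus for estrogen-induced pituitary growth: *Ept1* on chromosome 6, *Ept2* and *Ept6* on chromosome 3, and *Ept9* on chromosome 10. All animals shared the same treatment, an implant of 5 mg of the synthetic estrogen diethylstilbestrol (DES) under the skin from 9 to 21 weeks of age, and all received 50 mg/kg of BrdU 4 h before the end. No ACI array and no untreated array was analysed here, so the comparison for a line is with the average of the 3 remaining lines, and a shift in any line feeds into all of these contrasts. The number of replicates is in doubt, because the design text gives 3 biological replicates a line, while the notes on the samples speak of 3 animals and only 2 independent replicates. The p-values therefore measure the spread between these arrays, which may be in part technical.

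Signals are linear values scaled by the authors, with a trimmed mean of 500.18 to 500.19 on every array, and probe sets with a mean signal under 65.2 were left out as dim. Differences are given on the log2(signal + 16) scale, and a probe set is said to be called at an adjusted p under 0.05 (limma, Benjamini-Hochberg over all 18607 probe sets). The pituitary hormone genes were bright on every array, with *Prl* from 41979 to 51767 and *Gh1* from 27923 to 40693, whereas *Avp* and *Oxt* of the posterior lobe were left out as dim. *Pomc*, the defining marker of corticotrophs, was left out as dim as well, at 10.6 to 151.9. The other corticotroph marker read, *Tbx19*, passed the filter at 68.5 to 204.7. Correlations between arrays ran from 0.966 to 0.983, and Ept2 replicate 1 had the lowest median correlation with the others, 0.972. The 3 Ept2 arrays had a larger difference between the 3' and 5' probe sets of *Gapdh*, a sign of RNA quality, at 0.31 to 0.42 on the log2 scale against 0.09 to 0.28 on the other 9. For the other control genes, the same measure in Ept2 overlapped Ept1 but lay above Ept6 and Ept9. For beta-actin it was 1.76 to 1.85 in Ept2, 1.59 to 1.79 in Ept1, 1.49 to 1.72 in Ept6 and 1.58 to 1.62 in Ept9. For hexokinase it was 1.07 to 1.54 in Ept2, 0.64 to 1.40 in Ept1, 0.84 to 1.00 in Ept6 and 0.90 to 0.96 in Ept9.

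The sequence upstream of the start site is shown for 4 of these genes, *Ier2* and *Egr1* because a line difference was called in them, *Junb* because it had the next largest positive difference in Ept9 and lies on the chromosome of *Ier2*, and *Dusp1* because it holds the same response element as *Ier2*. Each is the 250 bases before the start site in the reference rat genome (RefSeq, build GRCr8), not in ACI or COP rats. Capitals mark a CArG box, the core TGACG of the cyclic AMP response element read on either strand, or TATAAA read on either strand.
Ier2 (chr19:40399123-40399372, strand +): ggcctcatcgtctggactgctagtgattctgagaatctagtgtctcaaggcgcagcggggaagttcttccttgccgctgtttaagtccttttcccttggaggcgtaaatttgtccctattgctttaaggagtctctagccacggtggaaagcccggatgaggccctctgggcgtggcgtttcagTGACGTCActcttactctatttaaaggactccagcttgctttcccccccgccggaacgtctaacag
Egr1 (chr18:26736828-26737077, strand +): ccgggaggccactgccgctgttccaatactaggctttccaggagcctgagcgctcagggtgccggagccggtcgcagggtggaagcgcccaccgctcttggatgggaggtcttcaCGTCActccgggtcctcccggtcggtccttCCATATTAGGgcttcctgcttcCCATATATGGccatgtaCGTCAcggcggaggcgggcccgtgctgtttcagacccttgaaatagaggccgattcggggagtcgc
Junb (chr19:40080876-40081125, strand +): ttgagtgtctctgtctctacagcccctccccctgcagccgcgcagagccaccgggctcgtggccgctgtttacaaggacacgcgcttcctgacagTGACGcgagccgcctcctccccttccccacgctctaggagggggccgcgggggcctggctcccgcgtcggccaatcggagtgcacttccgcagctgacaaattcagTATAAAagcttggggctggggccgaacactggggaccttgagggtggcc
Dusp1 (chr10:17184603-17184852, strand +): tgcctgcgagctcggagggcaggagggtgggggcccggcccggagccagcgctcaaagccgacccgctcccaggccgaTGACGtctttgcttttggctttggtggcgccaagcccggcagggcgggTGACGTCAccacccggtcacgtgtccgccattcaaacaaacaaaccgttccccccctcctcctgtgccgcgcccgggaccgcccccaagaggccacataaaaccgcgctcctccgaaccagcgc
Of the 10 genes, 7 had an entry in the promoter table (*Fosb*, *Junb*, *Egr1*, *Ier2*, *Dusp1*, *Nr4a1* and *Btg2*). The full element TGACGTCA, the same on both strands, was present in *Ier2*, *Dusp1* and *Btg2*, 3 of the 7, and in 1.59% of 33469 rat promoters of the same length. It holds the core TGACG on both strands, so the counts of both overlap. The core was present in 6 of the 7, all but *Fosb*, and in 18.2% of all. A CArG box was found only in *Egr1* among the 7, with 2 matches that begin 105 and 83 bases before the start, and in 1.5% of all promoters. TATAAA was present in *Fosb* and *Junb* and in 12.9% of all, and GGGCGG, the GC box, in *Dusp1*, *Nr4a1* and *Btg2* and in 30.5% of all. These matches describe letters in the window and not bound sites.

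*Ier2* and *Egr1* were the only members called between lines in the tests of 1 line against the other 3. *Ier2* was higher in Ept9 and *Egr1* was lower in Ept2, and no member was called in Ept1 or in Ept6. Among the 4 lines together, 1 of the 12 probe sets was called by the moderated F test of limma, that of *Ier2*, beside 0.994% of all probe sets tested. For Ept9 it was 1 of 12 beside 0.683%, for Ept2 1 of 12 beside 0.801%, for Ept1 0 of 12 beside 0.193% and for Ept6 0 of 12 beside 0.161%. At an unadjusted p under 0.05, limma gave 6 of 12 among the 4 lines beside 14.1% of all, 3 in Ept9 beside 11.02%, 7 in Ept2 beside 14.4%, 2 in Ept1 beside 7.49% and 3 in Ept6 beside 10.7%. Both calls lay close to the threshold, and leaving out a single array ended them in most cases, as given with each gene.

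**Figure D1:**
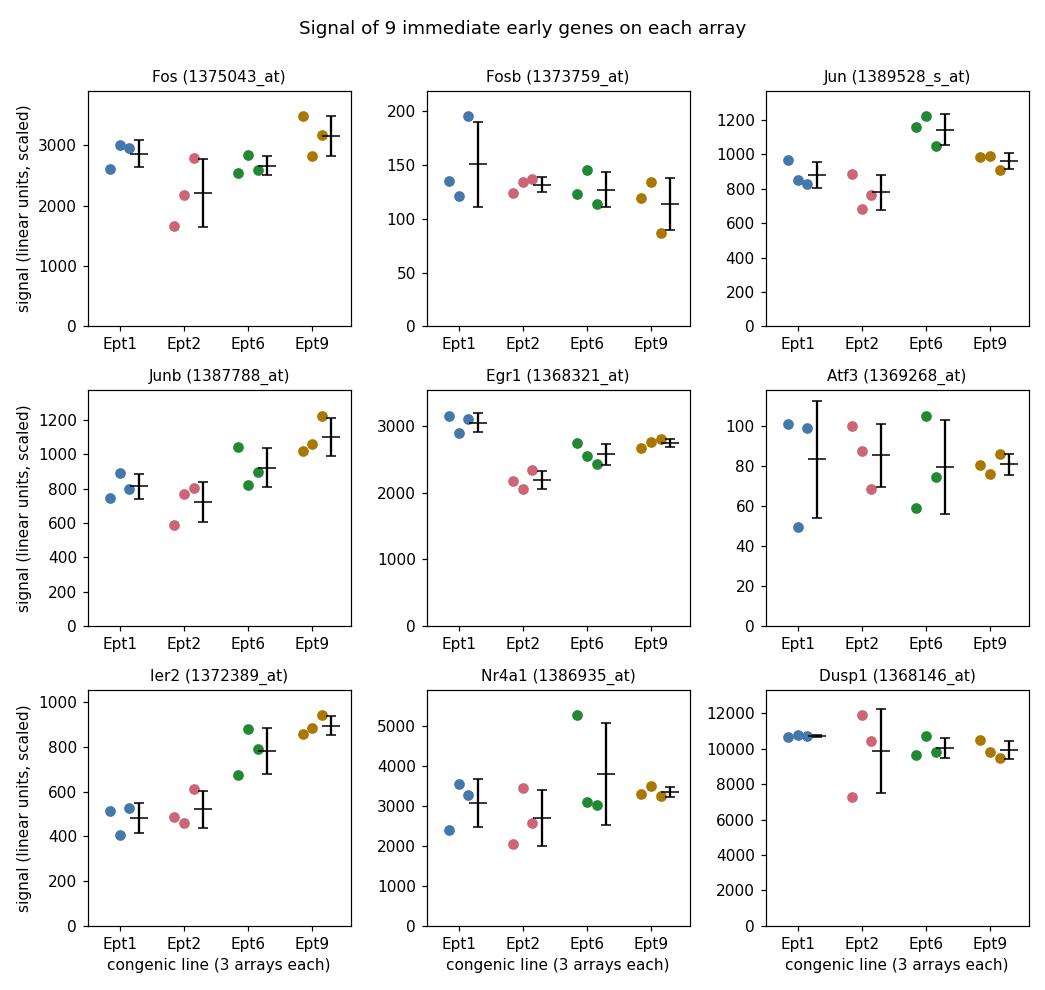
Signal (linear, scaled units, axis from 0) of 9 immediate early genes on each of 12 arrays, by congenic line, with the brightest probe set of each gene; coloured points are arrays and the black bar is the mean ± SD of 3 arrays. The 6 arrays of Ept6 and Ept9 lie above the 6 of Ept1 and Ept2 for *Ier2*, and the 3 Ept2 arrays lie below the other 9 for *Egr1*.

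*Ier2* encodes a small nuclear protein that takes part in the early transcriptional response to growth factors. Its signal was 856.0, 886.7 and 941.3 on the Ept9 arrays, against 515.3, 405.9 and 527.2 in Ept1, 486.6, 462.1 and 613.7 in Ept2, and 672.4, 880.7 and 791.1 in Ept6. Ept9 thus lay above Ept1 and Ept2 with no overlap, a separation whose share over all probe sets was not counted. The lowest Ept9 array lay below the highest of Ept6. The line means were 895 ± 43.2 in Ept9, 781 ± 104 in Ept6, 521 ± 81.4 in Ept2 and 483 ± 66.9 in Ept1 (SD, n = 3 each).

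Against the other 3 lines, *Ier2* was higher in Ept9 by 0.62 on the log2 scale (SE 0.12, 95% interval 0.36 to 0.87, 1.53-fold), with an adjusted p of 0.0446 (limma) and an exact permutation p of 0.0227 (two-sided, over the 220 choices of 3 of the 12 arrays). The F test among the 4 lines gave an adjusted p of 0.0293 (limma), and the exact permutation test over all partitions of the arrays gave 0.00266. The F call held in 10 of 22 alternatives (0.00153 to 0.126), and of the fits without 1 array only those without Ept2 replicate 3, Ept6 replicate 1 or Ept6 replicate 2 kept it (0.0289 to 0.0884 over all 12). The direction was kept in every alternative that was run, with differences of 0.58 to 0.68, whereas the adjusted p ran from 0.00647 to 0.234 and stayed under the threshold in 7 of 22 alternatives. Leaving out Ept2 replicate 3 kept the call at 0.0397, and leaving out any other single array gave 0.0510 to 0.234.

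In pairs of lines, *Ier2* was lower in Ept1 than in Ept9, with a log2 difference of -0.88 (SE 0.14, adjusted p = 0.0239, limma). It was also lower in Ept2 than in Ept9, with a difference of -0.77 (SE 0.14, adjusted p = 0.0336, limma). These were the only members called between 2 lines, 1 of 12 for Ept1 against Ept9 beside 0.5% of all and 1 of 12 for Ept2 against Ept9 beside 0.855%. The other pairs had 0 of 12 called, beside 0.102% for Ept1 against Ept2, 0.215% for Ept1 against Ept6, 0.656% for Ept2 against Ept6 and 0.124% for Ept6 against Ept9. At an unadjusted p under 0.05 (limma) these 4 pairs had 3, 3, 5 and 0 of the 12 in that order, beside 10.4%, 6.48%, 15.5% and 9.996% of all probe sets. By the same measure Ept1 against Ept9 had 2 of 12 beside 10.2% and Ept2 against Ept9 7 of 12 beside 12.01%. The difference of *Ier2* between Ept1 and Ept6 was -0.68 (SE 0.14, adjusted p = 0.151, limma) and between Ept2 and Ept6 -0.57 (adjusted p = 0.0991), and the neighbours in the order of the lines, Ept6 against Ept9 at -0.20 (interval -0.51 to 0.11) and Ept1 against Ept2 at -0.10 (interval -0.42 to 0.21), did not pass the test. The Ept1 against Ept9 call held in 6 of the 12 fits without 1 array and was lost without any of the 3 Ept1 or 3 Ept9 arrays (0.0643 to 0.104). The Ept2 against Ept9 call held in 5 of the 12 and was lost without Ept1 replicate 1, Ept2 replicate 1 or 2, Ept6 replicate 3 or any Ept9 array (0.0549 to 0.131). Over all 22 alternatives it held in 11, and it was also lost with no filter (0.106), array weights (0.0531), the replicate block (0.0524) and the *Gapdh* 3' to 5' difference as a covariate, chosen after seeing the data (0.260).

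All 6 arrays of Ept6 and Ept9, at 672.4 to 941.3, lay above all 6 of Ept1 and Ept2, at 405.9 to 613.7. This grouping of lines was chosen after the values were seen and carries no test, and 0.731% of all probe sets tested separate the same way. *Ier2* lies on chromosome 19, on which none of the 4 lines is labelled as carrying COP alleles. The probe sets that belong to the 10 genes on either side of it, 9 in number, had 0 called in Ept9, beside 0.683% of all probe sets tested. The 11 tested among the 22 annotated genes between *Junb* and *Ier2* also had 0 called, with 7 positive in Ept9 and a median log2 difference of 0.09. At that share, counts over so few probe sets cannot tell whether the region differs.

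Markers of other cells were read on the same arrays. In Ept9 the summed signal of 4 stroma markers (*Col1a1*, *Col1a2*, *Col3a1* and *Dcn*) was 3712 to 3961, against 1661 to 3707 in the other lines, with a median log2 difference of 0.53. *Col1a1*, *Col1a2* and *Col3a1* were positive, at 0.43, 0.70 and 0.63, while *Dcn* differed by -0.31. The sum is mostly *Col1a2*, at 3105 ± 141 in Ept9 (SD, n = 3). Of all single probe sets tested, 1.3% had every Ept9 array above the other 9, and no share was counted for sums. The red blood cell markers *Hbb* and *Alas2* summed to 18392 to 29666 in Ept9 and to 13217 to 19690 in the others, with a median difference of 0.50. *Hbb* varied widely between the Ept9 arrays (22283 ± 5701, SD, n = 3). Other sets were lower in Ept9: the 4 folliculostellate and stem cell markers were all negative (median -0.16), as were both thyrotroph markers (median -0.29). None of these markers was called or listed at 0, and their part in the difference of *Ier2* was not tested. In RNA of a whole gland, fewer cells of a type and less RNA per cell cannot be told apart.

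*Egr1* had signals of 2170.4, 2058.9 and 2333.5 on the Ept2 arrays, against 3153.3, 2885.8 and 3094.9 in Ept1, 2744.1, 2548.9 and 2425.1 in Ept6, and 2672.7, 2757.5 and 2797.6 in Ept9. The highest Ept2 array lay below the lowest of the other 9, which 1.68% of all probe sets did as well. The line means were 2188 ± 138 in Ept2, 2573 ± 161 in Ept6, 2743 ± 63.8 in Ept9 and 3045 ± 141 in Ept1 (SD, n = 3 each).

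The difference of Ept2 from the other 3 lines was -0.34 on the log2 scale (SE 0.07, 95% interval -0.49 to -0.19, a ratio of 0.788), with an adjusted p of 0.0498 (limma) and an exact permutation p of 0.00455, the smallest that 220 choices allow. Leaving out any 1 of the 12 arrays kept the difference between -0.39 and -0.30 and raised the adjusted p to 0.0710 to 0.133, so that the call was lost each time. Over all 22 alternatives the adjusted p ran from 0.00545 to 0.488 and stayed under the threshold in 4.

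The 3 Ept1 arrays were above the other 9, with a difference of 0.29 (SE 0.07, exact permutation p = 0.0136) that did not pass the test across probe sets (adjusted p = 0.252, limma), and 0.607% of all probe sets lay apart in this way. *Egr1* also had the lowest exact permutation p among the 4 lines, 0.00013, whereas the F test gave an adjusted p of 0.0812 (limma). Between neighbours in the order of the lines the differences were -0.23 for Ept2 against Ept6 (adjusted p = 0.225), -0.09 for Ept6 against Ept9 (0.733) and 0.15 for Ept1 against Ept9 (0.587), all by limma. The widest pair, Ept1 against Ept2, differed by 0.47 (SE 0.08, adjusted p = 0.0855).

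The Ept2 arrays differed from the others in more than *Egr1*. When that *Gapdh* difference entered the fit as a covariate, an alternative chosen after seeing the data, the *Egr1* difference in Ept2 was -0.41 (SE 0.15, adjusted p = 0.488, limma). That of *Ier2* in Ept9 was 0.68 with an adjusted p of 0.0686 (limma). The covariate was highest on the 3 Ept2 arrays, so it cannot be told apart from that line. In that fit 0 of all 18607 probe sets were called in Ept2, against 149 in the main fit, so the loss is not particular to *Egr1*. The 5 tested gonadotroph markers were all positive in Ept2 with a median log2 difference of 0.44. Their summed signal was 35042 to 41682 in Ept2, against 29582 to 37647 in the others. This sum is nearly all *Cga*, which differed by 0.21. *Gnrhr*, which gives the median, varied widely between the Ept2 arrays (522 ± 374, SD, n = 3). So did *Fshb* (414 ± 233) and *Nr5a1* (317 ± 159). The folliculostellate and stem cell markers *S100b*, *Aldh1a1*, *Sox2* and *Fxyd1* were all positive too, with a median of 0.46 and a sum of 1465 to 2112 in Ept2, against 1029 to 1425 in the others. Both thyrotroph markers were positive with a median of 0.51, though *Tshb* varied widely between the Ept2 arrays (11900 ± 6027, SD, n = 3). The somatotroph sum was 36135 to 40938 in Ept2, against 28070 to 34502 in the others. That sum is nearly all *Gh1*, which differed by 0.25, while *Ghrhr* differed by -0.14. Of all single probe sets tested, 1.92% had every Ept2 array above the other 9, and no share was counted for sums. No marker was called or listed at 0, and their part in the difference of *Egr1* was not tested. The signal of *Lhb*, a target of EGR1, was 352.2, 332.0 and 405.3 in Ept2, against 260.9, 273.4 and 236.0 in Ept1, 231.9, 317.9 and 209.9 in Ept6, and 335.0, 303.2 and 342.4 in Ept9. Its difference in Ept2 was 0.38 and was not called (adjusted p = 0.171, limma).

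**Figure D2:**
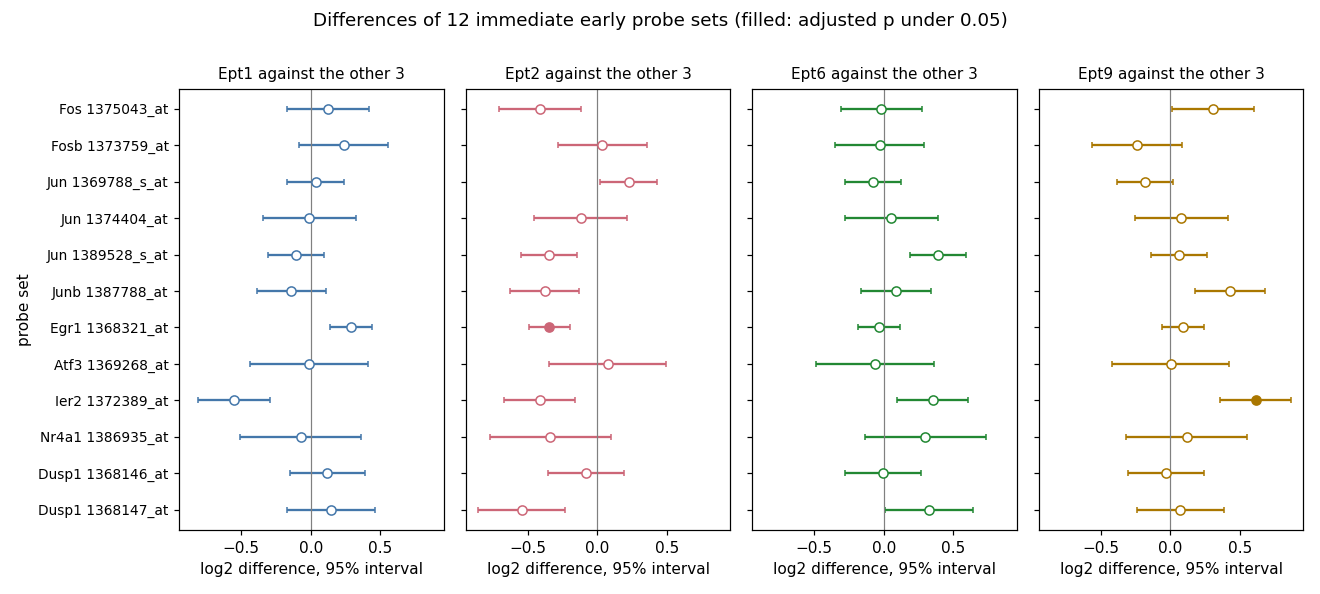
Difference on the log2(signal + 16) scale with its 95% interval (limma) of each line against the other 3 for the 12 immediate early probe sets that passed the filter, 1 panel a line. Filled points have an adjusted p under 0.05, *Egr1* in Ept2 at -0.34 and *Ier2* in Ept9 at 0.62, and in the Ept2 panel 9 of 12 points lie below 0.

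None of the AP-1 genes was called. *Fos*, the partner of JUN in classical AP-1, gave 2608.8, 3008.2 and 2957.8 in Ept1, 1662.0, 2166.9 and 2790.2 in Ept2, 2543.2, 2834.4 and 2591.1 in Ept6 and 3483.2, 2822.5 and 3159.9 in Ept9. The highest Ept2 array, at 2790.2, lay just below the lowest Ept9 array, at 2822.5, and Ept2 replicate 1 was the lowest of all. The share of all probe sets that separate Ept2 from Ept9 in this way was not counted. Between Ept2 and Ept9 the difference was -0.54 (SE 0.16, adjusted p = 0.200, limma). *Fos* differed by -0.41 in Ept2 (SE 0.13, adjusted p = 0.189) and by 0.31 in Ept9 (SE 0.13, adjusted p = 0.430, limma). It lies on chromosome 6, the chromosome of the *Ept1* locus, and its difference in Ept1 was 0.12 (95% interval -0.17 to 0.42, adjusted p = 0.914). Whether it lies inside the introgressed segment is not given in the sources used here. A second *Fos* probe set, 1371283_at, was dim at 5.6 to 51.8 and was left out.

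*Junb*, which encodes a JUN family protein, gave 748.8, 893.9 and 799.8 in Ept1, 591.0, 769.6 and 804.8 in Ept2, 1044.4, 820.3 and 899.7 in Ept6 and 1019.9, 1060.7 and 1225.9 in Ept9. Ept9 was highest by mean, at 1102 ± 109, and its lowest array lay below only 1 array of another line, Ept6 replicate 1. The difference was 0.43 in Ept9 (SE 0.11, adjusted p = 0.162) and -0.38 in Ept2 (SE 0.11, adjusted p = 0.162, limma). Between Ept2 and Ept9 it was -0.61 (SE 0.14, adjusted p = 0.0856).

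*Jun* was read by 3 probe sets that did not move alike between lines. The brightest, 1389528_s_at, gave 966.3, 849.8 and 827.0 in Ept1, 886.6, 681.0 and 765.7 in Ept2, 1156.4, 1222.4 and 1044.9 in Ept6 and 984.3, 989.4 and 907.5 in Ept9. Its 3 Ept6 arrays lay above the other 9, as 0.86% of all probe sets did, with a difference of 0.39 (SE 0.09, adjusted p = 0.186, limma). In Ept2 this probe set differed by -0.35 (SE 0.09, adjusted p = 0.124), whereas 1369788_s_at differed by 0.22 (SE 0.09, adjusted p = 0.302) and 1374404_at by -0.12 (SE 0.15, adjusted p = 0.776). The signals of 1369788_s_at ran from 531.2 to 768.1 and those of 1374404_at from 194.5 to 321.6. The direction of *Jun* in Ept2 thus depends on the probe set.

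*Fosb* and *Atf3* were much closer to the filter. *Fosb*, a FOS family gene, gave 135.0, 121.4 and 195.8 in Ept1, 123.9, 134.1 and 137.2 in Ept2, 122.7, 145.4 and 113.8 in Ept6 and 119.8, 134.2 and 86.7 in Ept9, with overlap between all lines. *Atf3*, which encodes a stress-induced factor of the ATF/CREB family, gave 101.4, 49.7 and 99.3 in Ept1, 100.1, 87.7 and 68.7 in Ept2, 59.0, 105.4 and 74.8 in Ept6 and 80.7, 76.0 and 86.4 in Ept9. No line stood apart in either gene. The adjusted p among the 4 lines was 0.647 for *Fosb* and 0.990 for *Atf3* (limma).

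*Nr4a1* encodes the orphan nuclear receptor NUR77. Its signal was 2388.3, 3540.1 and 3254.6 in Ept1, 2048.3, 3439.9 and 2575.0 in Ept2, 5255.2, 3101.0 and 3022.9 in Ept6 and 3288.4, 3480.6 and 3242.9 in Ept9. The highest of the 12 arrays, Ept6 replicate 1, stood well above its 2 replicates, and the spread within Ept6 was 33.4% of its mean. The differences were 0.30 in Ept6 (SE 0.20, adjusted p = 0.619) and -0.34 in Ept2 (SE 0.20, adjusted p = 0.469, limma).

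*Dusp1* encodes a phosphatase that switches MAP kinases off. Its brighter probe set, 1368146_at, gave 10658.1, 10800.2 and 10727.3 in Ept1, 7249.4, 11888.2 and 10430.7 in Ept2, 9649.5, 10712.1 and 9820.1 in Ept6 and 10504.3, 9815.0 and 9485.4 in Ept9. Ept2 held both the lowest and the highest of the 12 arrays. The second, 1368147_at, gave 765.8, 1070.4 and 1203.5 in Ept2, against 1322.1, 1338.2 and 1662.9 in Ept1, 1857.1, 1419.4 and 1482.0 in Ept6 and 1218.2, 1469.9 and 1462.3 in Ept9.

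By 1368147_at the Ept2 arrays lay below the other 9, as 1.68% of all probe sets did, with a difference of -0.54 (SE 0.14, adjusted p = 0.121, limma; exact permutation p = 0.00455), whereas by 1368146_at the difference was -0.08 (SE 0.12, adjusted p = 0.813). *Dusp1* lies on chromosome 10, the chromosome of the *Ept9* locus. Its differences in Ept9 were -0.03 (95% interval -0.30 to 0.24, adjusted p = 0.957) and 0.07 (interval -0.24 to 0.39, adjusted p = 0.905), and the sign of the first depends on the processing.

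Across the 12 probe sets the median log2 difference was -0.34 in Ept2, with 3 positive and 9 negative, 0.08 in Ept9 (9 positive, 3 negative), 0.01 in Ept1 and 0.02 in Ept6 (6 positive and 6 negative in each). With the *Gapdh* covariate the median was -0.19 in Ept2 (1 positive, 11 negative), 0.08 in Ept9 and 0.13 in Ept6. The median over all probe sets tested lay between -0.01 and 0.01 in each of these contrasts. The median size without regard to sign was 0.34 in Ept2 for the members and 0.12 for all probe sets, and in Ept9 it was 0.10 for the members and 0.11 for all. Since *Jun* and *Dusp1* are each read by more than 1 probe set, and all come from the same arrays, these are not 12 independent values.

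Genes around the early response were read from 3 lists, and none was called in any line or among the 4 lines. Of 45 other immediate early and early response genes, 44 had a probe set and 39 were tested, with 3 in Ept1, 3 in Ept2, 2 in Ept6 and 2 in Ept9 at an unadjusted p under 0.05 (limma) and a median difference between -0.03 and 0.03 in each line. Of 17 upstream kinases and factors, among them *Elk1*, a partner of serum response factor, 14 were tested, with 2 in Ept9 at an unadjusted p under 0.05 and 0 in the other lines. Of 10 feedback inhibitors and antiproliferative genes 6 were tested, and at an unadjusted p under 0.05 there were 4 in Ept2, 2 in Ept6, 1 in Ept9 and 0 in Ept1. The shares of all probe sets at that p were 7.49% in Ept1, 14.4% in Ept2, 10.7% in Ept6 and 11.02% in Ept9. The feedback genes did not move one way in Ept2, with 4 positive and 2 negative. *Dusp6*, a phosphatase of ERK, differed there by -0.22, and the Sprouty genes, inhibitors of growth factor signalling, by 0.32 (*Spry4*), 0.21 (*Spry2*) and -0.43 (*Spry1*). In Ept9 *Spry4* differed by -0.66.

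Whether these genes moved together from array to array was read from the deviation of each array from the mean of its line, for 9 genes with their brightest probe set. Of 36 pairs, 24 had a correlation above 0 and 12 below, with a median Pearson r of 0.13. Over all pairs of probe sets tested the median was 0 and the lower and upper quartiles were -0.27 and 0.27, and over 5139 pairs of probe sets for the same gene the median was 0.15. No pair passed after Benjamini-Hochberg adjustment over the 36 exact permutation tests within lines (all orders of the arrays in each line, two-sided). The lowest adjusted p was 0.784, and 1 pair had an unadjusted p under 0.05.

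**Figure D3:**
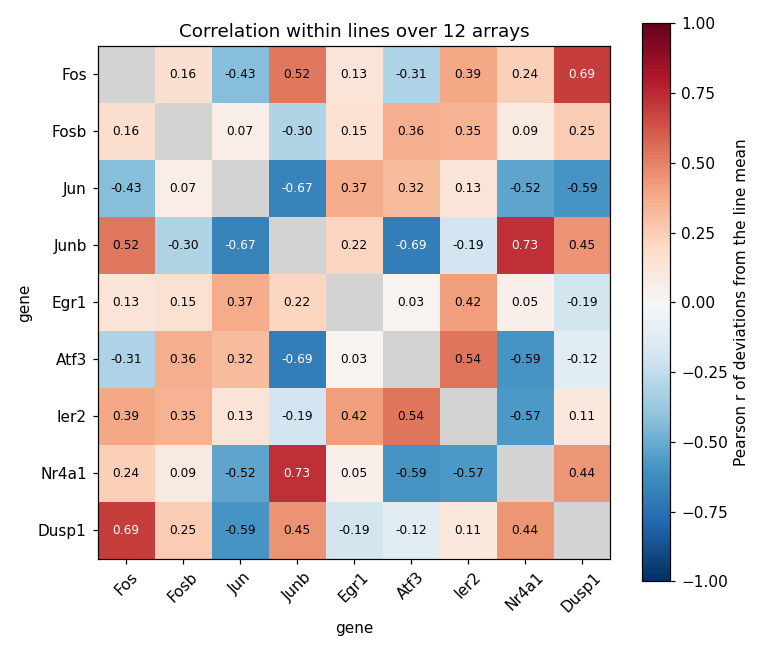
Pearson r of each pair of 9 immediate early genes over 12 arrays, after the mean of each line was removed; both axes list the genes and colour gives r. The highest value is 0.73 for *Junb* with *Nr4a1* and the lowest is -0.69 for *Junb* with *Atf3*.

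*Junb* and *Nr4a1* had the highest correlation, with r = 0.73 (exact permutation p = 0.0633) and rho = 0.66 (exact permutation p = 0.0802), adjusted to 0.784 and 0.733. Without the 2 arrays farthest from the median of *Junb*, r was 0.57, and without any single array it was 0.63 to 0.82. *Fos* and *Dusp1* followed with r = 0.69 (exact permutation p = 0.342) and rho = 0.69 (p = 0.0648, adjusted p 0.784 and 0.733). This relation rests on 1 array, since r was -0.06 without Ept2 replicate 1 and 0.33 without the 2 farthest arrays.

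The next pairs were *Ier2* with *Atf3* (r = 0.54, rho = 0.52, exact permutation p = 0.200 and 0.193), *Fos* with *Junb* (r = 0.52, rho = 0.29, p = 0.305 and 0.465) and *Junb* with *Dusp1* (r = 0.45, rho = 0.08, p = 0.508 and 0.877). Without the 2 farthest arrays their r was 0.76, -0.07 and 0.14 in that order, so the relations of *Junb* with *Fos* and with *Dusp1* rest on those arrays. Single arrays decided all 3 as well, since r was 0.21 for *Ier2* with *Atf3* without Ept1 replicate 2, and 0.02 and -0.62 for *Junb* with *Fos* and with *Dusp1* without Ept2 replicate 1. At the other end were *Junb* with *Atf3* (r = -0.69, rho = -0.66, exact permutation p = 0.0247 and 0.0509) and *Jun* with *Junb* (r = -0.67, rho = -0.62, p = 0.0903 and 0.102), whose r was -0.64 and -0.50 without the 2 farthest arrays. All adjusted p-values of these 5 pairs lay between 0.733 and 0.956.

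*Ier2* and *Junb*, the genes with the largest positive differences in Ept9, had a pooled r of 0.67 over the 12 arrays and -0.19 within lines. *Egr1* and *Fos* had 0.63 pooled and 0.13 within lines. The pooled values hold the differences between lines and carry no test here. Even probe sets of the same gene agreed only in part within lines: the 3 pairs of *Jun* had r of 0.63, 0.55 and 0.01, and the pair of *Dusp1* had 0.48.

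**Figure D4:**
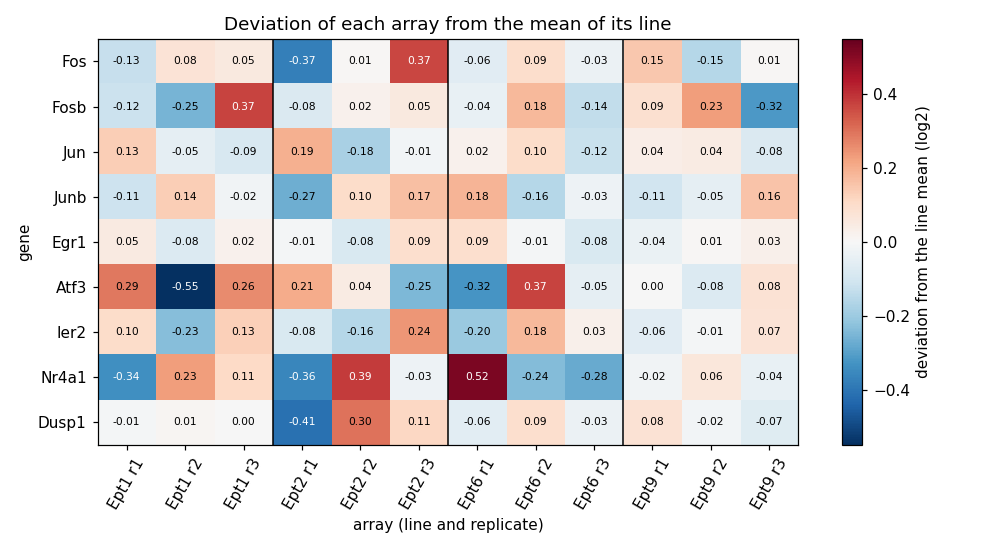
Deviation of each array from the mean of its line on the log2(signal + 16) scale, with the 12 arrays (line and replicate) across and 9 immediate early genes down. Ept2 replicate 1 is below its line mean in 7 of 9 genes and is the lowest of all 12 arrays for 4 of them by level, and no column is of a single sign.

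Array by array, Ept2 replicate 1 lay below its line mean for 7 of the 9 genes, with a mean standardized deviation of -0.73, and was the lowest of the 12 arrays for 4 of them. Ept6 replicate 3 lay below its line mean for 8 of 9 and Ept2 replicate 3 above it for 6 of 9 (mean standardized deviation 0.70). The median r of the 36 pairs was 0.04 without Ept2 replicate 1. The genes whose deviations were most like the mean of the 9 standardized genes over the 12 arrays were *Msantd3* (r = 0.96), *Bscl2* (0.93), *Cfap20dc* (0.92), *Dok1* (0.92), *Naa16* (0.91), *Tmed1* (0.90), *Get3* (0.90), *Zfp428* (0.90), *Kmt2b* (0.90) and *Galnt1* (0.90). They are the 10 highest of all named probe sets tested and carry no test. Among the listed genes around the early response, *Dusp5* had r = 0.70, *Dusp6* r = 0.64 and *Klf2* r = 0.63, while *Elk1* had r = -0.66 and *Gadd45b* r = -0.58. These are among the largest values of the listed genes and carry no test. The median r was 0.11 for the other early response genes, -0.04 for the upstream kinases and factors and 0.25 for the feedback genes.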

How the data were processed

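Anterior pituitary RNA of DES-treated male rats was hybridised to 1-colour arrays, 3 for each of 4 lines, grouped by the sample titles. The deposited values are linear intensity values (signals) of 31099 probe sets, scaled by the authors. The software that made them is not given in the sources used here, nor is the background correction. From these, log2(signal + 16) was computed. Left out were 57 control probe sets and 12435 probe sets under the 40th percentile of the mean (a signal of 65.2), which left 18607. Fold changes on this scale understate the change of dim genes, and the number of arrays limits the precision.

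Tests used limma 3.58.1 in R 4.3.3 (moderated F test, and contrasts of each line and each pair in 1 fit, with no block), exact permutation tests of single probe sets, and correlations of deviations from the line mean, and were tested on simulated data (Python 3.11.15). Gene symbols came from the platform annotation, chromosomes and promoters from RefSeq (GRCr8). Named were every member, the 5 pairs with the highest and 2 with the lowest r, the 10 genes most like the members, and listed genes with the highest correlation with them, of which the text prints part. The pairs *Ier2* with *Junb* and *Egr1* with *Fos*, and *Lhb*, lie outside this rule and were chosen after their values were seen. Members and lists were chosen with earlier results of these data known. The alternatives run were array weights, an eBayes trend, median centring, a pseudocount of 1 or of 64, quantile normalization, a filter at the 60th percentile or none, the replicate number as a block, and each array left out in turn.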

Additional observations from a re-analysis of the deposited data

How the results depend on the processing

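The counts of called members depend on the processing. Among the 4 lines the 1 called probe set became 0 with no filter, 2 with a filter at the 60th percentile, 3 with an eBayes trend, 0 with the replicate block, 0 with the Gapdh covariate (added after seeing the data) and 0 to 1 when 1 array was left out. The 2 called in 1 line against the other 3 became 0 with a pseudocount of 1, with no filter, with the replicate block and with the Gapdh covariate, 1 with quantile normalization and with array weights, 5 with the trend, and 0 to 1 without 1 array. The 2 called between pairs of lines became 0 with no filter, 6 under the stricter filter, 9 under the trend, 1 with array weights, with the replicate block and with the Gapdh covariate, and 0 to 2 without 1 array. The Dusp1 difference in Ept9 of -0.03 (1368146_at) became 0.0154 with median centring and ran from -0.10 to 0.0202 without 1 array (0.0202 without Ept2 replicate 2, 0.00287 without Ept9 replicate 3). The median r of 0.13 was 0.22 pooled over the arrays, 0.19 with the probe sets of a gene averaged or with median centring, 0.20 with the replicate block and 0.0405 to 0.19 without 1 array. Over all probe sets, 185 were called among the lines, 53 with no filter, 282 under the stricter filter, 419 under the trend, 84 with the block, 37 with the covariate and 73 to 142 without 1 array. The cause of these shifts was not tested. Arrays with the same replicate number had correlated deviations of only -0.137 to 0.0787, so the numbers were not taken to pair the arrays. With the replicate block the adjusted p (limma) was 0.0967 for Egr1 in Ept2, 0.0780 for Ier2 in Ept9 and 0.0455 for Ier2 in Ept1 against Ept9.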
